A study of Mus musculus with 7 samples.

Results

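The cytosolic ribosomal protein genes were followed in RNA sequencing data of mouse T-cells in which ORP4L, a lipid-binding protein of the oxysterol-binding family encoded by Osbp2, was expressed from a knock-in. Genes were taken by name: Rpl or Rps followed directly by a digit, plus Rplp0, Rplp1, Rplp2 and Rpsa. Of 105 matching names, 10 kinases of the Rps6k family and 6 pseudogenes marked "-ps" were left out. The remaining 89 were required to have at least 10 read counts in every library, and 86 of the 25033 genes listed passed, 51 named Rpl (large subunit) and 35 named Rps (small subunit). The other 3 were Rpl10l, at 0 counts in all libraries, Rpl39l at 3 to 46 counts and Rpl3l at 2 to 25 counts. The lowest count among the genes that passed was 33, for Rps4l. Of the 86, 77 encode the established cytosolic ribosomal proteins, and 9 match the name only as paralogs, gene copies or, in the case of Rpl7l1 and Rps19bp1, as proteins that are not ribosomal subunits.

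The data comprised 7 libraries from C57BL/6J mice labelled as 15 months old, with 1 library per mouse. The 4 ORP4L knock-in (KI) libraries came from mice at the moribund state that carried a human ORP4L-3xFlag-IRES-EGFP cassette behind a CAG promoter and a loxP-flanked stop at the Rosa26 locus, together with Lck-Cre, which acts in the T lineage. The 3 wild-type (WT) libraries came from littermates of the same age. T-cells had been taken from peripheral blood mononuclear cells or splenocytes with a naive CD4+ T-cell kit, and the source of each library was not given in the sources used here, so source and genotype cannot be told apart. The paper also describes culture of the isolated T-cells with IL-2 and PHA. Whether the sequenced cells had been cultured in this way was not stated. The total count per library was 12918187 to 15912921 in WT and 16757959 to 19665679 in ORP4L KI.

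A cytosolic ribosome joins a small subunit, which decodes the mRNA, to a large subunit, which forms the peptide bond, and most core proteins are needed in equal number, so cells make them in balance. Their mRNAs begin with a C followed by a run of pyrimidines, the terminal oligopyrimidine (TOP) motif, through which mTOR and the binding protein Larp1 adjust translation of the whole set at once. In T-cells ribosome production rises on activation, and mutation or loss of RPL5, RPL10, RPL11 or RPL22 has been described in human T-cell leukemia.

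The annotated transcript starts were searched for this motif, which the choice of genes did not use. RefSeq promoters of mouse assembly GRCm38.p6 (mm10) were matched by symbol to 65 of the 86 genes. A C at the annotated start followed directly by at least 4 bases that are C or T was present in 15 of the 65 (23.1%), compared with 2.83% of the 18327 listed genes with a promoter. When the run was allowed to begin up to 5 bases on either side of the start, 31 of the 65 (47.7%) and 21.7% of the listed genes had one. The following lines give 30 bases around the start for genes whose read counts are described later, 5′ to 3′, with the pyrimidine run from the annotated start in capitals.
Rps6 (chr4:86857346-86857375, minus strand): agtcgggcCTCTTTTTCgtgacgcctccca
Rpl38 (chr11:114668572-114668601, plus strand): gcctcgttCTTTCCCCgttctcttcggttc
Rpl35a (chr16:33056474-33056503, plus strand): ttgccttcCTCTTTCCgccatcttggcgcc
Rps10 (chr17:27635223-27635252, minus strand): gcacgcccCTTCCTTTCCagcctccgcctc
Rplp2 (chr7:141447643-141447672, plus strand): gcgtcttcCTTTCgccgccggacgccgccg
Rps27 (chr3:90213627-90213656, minus strand): ctttcgctCCTTTCCggcggtgacgacctc
Rps27rt (chr9:114982718-114982747, minus strand): atcccttgCTTTCCggcggtgacgacctcc
These runs were 5 to 10 bases long, and those of Rps6 and Rps10 were the longest of the 7 shown. Other motifs were searched in the whole promoter window, on both strands. CCGGAAG, a core bound by ETS family factors, was found in 38.5% of the 65 genes and in 12.8% of listed genes. AAGATGG, the core bound by Yy1, was found in 15.4% against 7.25%. CACGTG, the E-box bound by Myc and Max, was found in 9.23% against 9.12%, and TATAAA in 12.3% against 14.2%. A match is a description of these letters and not a measured binding site.

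The library labels were first compared with the knock-in itself. Reads counted on mouse Osbp2 numbered 0, 0 and 1 in the WT libraries and 188, 742, 155 and 443 in ORP4L KI libraries 1 to 4. All 15 T-cell markers tested were detected, and their sum took 0.274% to 0.459% of counts in WT and 0.151% (KI 1) to 0.575% (KI 2) in ORP4L KI. Granulocyte markers such as S100a9 and Ngp, which encode granule and antimicrobial proteins, took 0.186% to 0.530% of counts in WT and 12.2%, 1.12%, 3.06% and 4.91% in ORP4L KI 1 to 4, and none of the 14 was at 0 in every library. All 14 were called higher in ORP4L KI by the test and thresholds described below. Erythroid markers took 1.10% to 1.87% in WT and 0.137% to 0.873% in ORP4L KI. In bulk samples, fewer cells of a type and less RNA per cell cannot be told apart, and the part of these cells in the results below was not tested except where a value is given.

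None of the 86 ribosomal protein genes separated ORP4L KI from WT T-cells. Read counts of all 13462 genes with sufficient counts were compared by edgeR's quasi-likelihood test after TMM scaling, and a call required a log2 fold change over 1 in size together with p under 0.01 before adjustment. No ribosomal protein gene was called, against 4.68% of all genes tested (630 genes). At an adjusted p under 0.05 the count was also 0, against 0.0223% of all genes (3 genes). At an unadjusted p under 0.05 it was 0, against 13.7% of all genes. None of the 86 had WT and KI libraries that did not overlap, against 13.8% of all genes. DESeq2's Wald test, which called 5.82% of all genes at an adjusted p under 0.05, called 0 of the 86, as did edgeR's likelihood ratio test (5.24% of all genes) and exact test (5.07%).

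The fold changes were small and mostly on the same side. The log2 fold change of ORP4L KI over WT was above 0 in 73 of the 86 genes and below 0 in 13, against 51.5% above 0 among all genes tested. Its median was 0.12, with quartiles of 0.04 and 0.26, and the median over all genes was 0.01. The lean was also seen in other genes. Among 78 mitochondrial ribosomal protein genes 58 (74.4%) were above 0, with a median of 0.10. Over 401 other genes with transcripts no longer than the median length of the 86, the median was 0.27. Among the 86, the log2 fold change lay within 0.2 of 0 in 56 genes. The 95% interval contained 0 in all 86 and lay entirely between -1 and 1 in 69, so for these 69 a change of 2-fold or more was outside the interval. The median was -0.03 without WT 3, with 39 genes above 0, and 0.01 without KI 4, with 48 above 0. It was 0.27 without KI 2, with 82 above 0, and 0.22 and 0.21 without WT 1 and without WT 2. With libraries scaled by total counts, which moved the median of all genes to -0.13, the median of the 86 was -0.04 with 37 above 0. Among all settings tried, most of the genes lay below 0 only without WT 3 and with total counts. With total counts, 35.6% of all genes were above 0. The median of the 86 minus that of all genes was 0.08 with total counts and 0.11 with TMM scaling. It was -0.07 without WT 3 and -0.003 without KI 4.

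**Figure D1:**
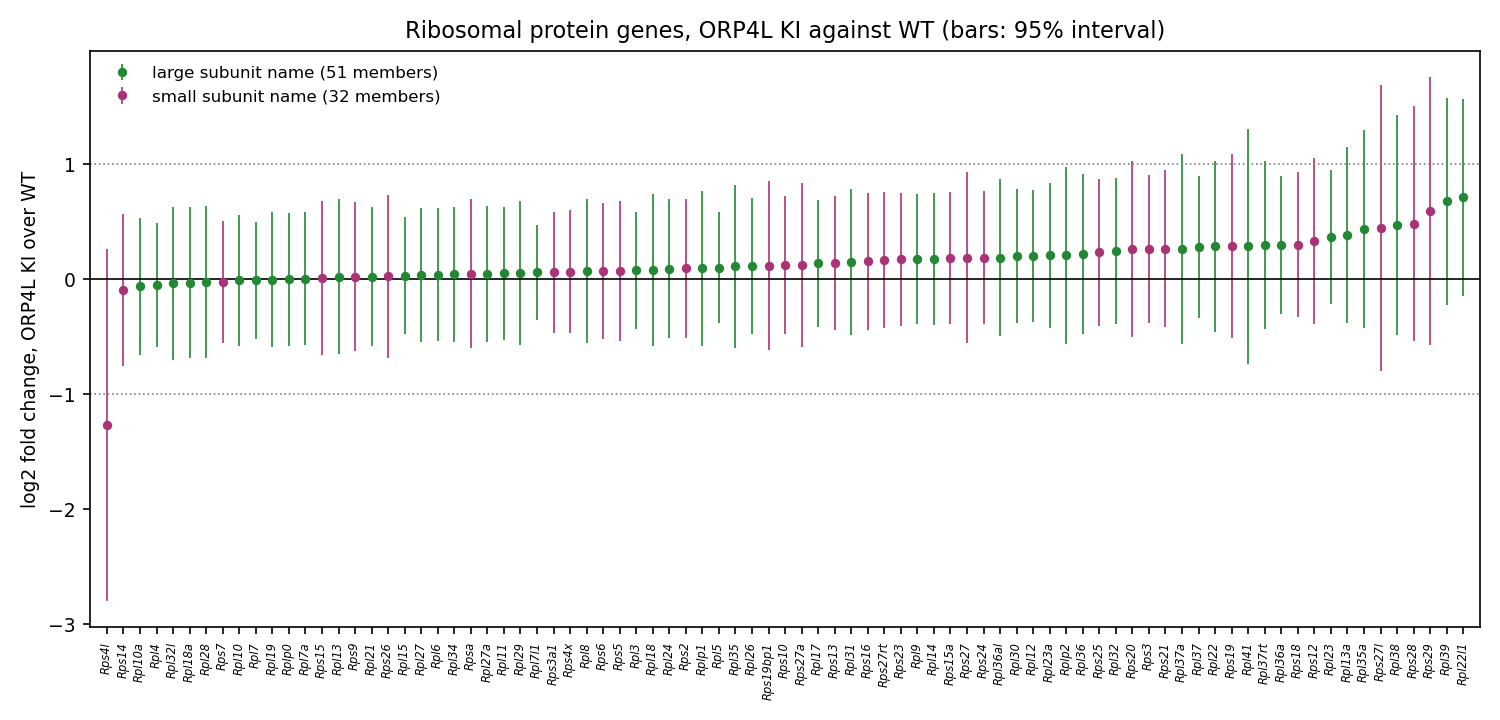
The log2 fold change of ORP4L KI over WT (vertical axis) is plotted for 83 of the 86 genes (horizontal axis, in order), green for large subunit and purple for small subunit names, with 95% intervals as bars and dotted lines at -1 and 1. Every bar crosses 0, and the values run from -1.27 for Rps4l to 0.71 for Rpl22l1.

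The ribosomal stalk proteins, which recruit elongation factors, differed by less than the spread between libraries. Rplp0, the stalk base, had 3568, 3507 and 2805 CPM (counts scaled to a common TMM library size) in WT and 3183, 2387, 3448 and 4149 CPM in ORP4L KI. The lowest and the highest library were both ORP4L KI, and the WT values lay inside that range. The log2 fold change was -0.00 (SE 0.259, edgeR adjusted p = 0.999, exact two-sided permutation p = 0.886). Its partners Rplp1 and Rplp2 had log2 fold changes of 0.10 and 0.21, with SEs of 0.301 and 0.342, and the latter was 0.03 without KI 1. Rpsa, a small subunit protein also known as a laminin receptor, had the most counts of the group, at 3624 to 5294 CPM in WT and 3850 to 6556 CPM in ORP4L KI, and a log2 fold change of 0.05. Rps27a, translated as a fusion with ubiquitin, had a value of 0.13.

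The 4 genes linked to human T-cell leukemia were not called either. Rpl5 and Rpl11 join the 5S RNA in a particle that can bind the p53 ligase Mdm2. Rpl5 had 1774, 1761 and 1687 CPM in WT and 1808, 1551, 1919 and 2195 CPM in ORP4L KI. Its log2 fold change was 0.10 (95% interval -0.38 to 0.59, exact permutation p = 0.514). Rpl11 had a mean of 1114 ± 247 CPM (SD, n = 3) in WT and 1155 ± 235 CPM (n = 4) in ORP4L KI. Rpl10, the joining protein that completes the large subunit, had 1383 ± 253 CPM in WT and 1374 ± 284 CPM in ORP4L KI. Rpl22, an RNA-binding protein needed for T-cell development, had 414, 411 and 259 CPM in WT and 697, 271, 380 and 416 CPM in ORP4L KI. Its values overlapped, with KI 1 the highest by far, and the log2 fold change of 0.29 (SE 0.331, adjusted p = 0.801) was -0.02 without KI 1.

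Genes for proteins with roles in signalling or outside the ribosome gave log2 fold changes from 0.07 to 0.48, none of them called. Rps6, the substrate of the S6 kinases, had 3328, 3197 and 2428 CPM in WT and 2799, 2415, 3243 and 4078 CPM in ORP4L KI. Each genotype had a low library, WT 3 and KI 2, and the groups overlapped, with a log2 fold change of 0.07 (SE 0.263, adjusted p = 0.948). Rps3, which also acts in DNA repair, had a value of 0.27 (0.12 without KI 1) and Rpl26, which binds the Trp53 mRNA, 0.11. Rpl13a, which silences interferon-gamma-induced mRNAs once released, had 2468, 2290 and 1622 CPM in WT and 4087, 1562, 2453 and 3004 CPM in ORP4L KI. KI 1 was the highest and KI 2 the lowest library of the 7, and the log2 fold change of 0.38 (95% interval -0.38 to 1.15) came with an adjusted p of 0.712, and was 0.14 without KI 1. Rpl38, which guides translation of Hox mRNAs, had 324, 314 and 144 CPM in WT and 594, 167, 325 and 364 CPM in ORP4L KI, with a log2 fold change of 0.48 (SE 0.426) that was 0.13 without KI 1.

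Genes mutated in Diamond-Blackfan anemia, an inherited failure of red cell production, had log2 fold changes that included -0.02 (Rps7), 0.03 (Rps26), 0.12 (Rps10), 0.19 (Rps24), 0.29 (Rps19) and 0.44 (Rpl35a). Without KI 1 the values of Rps19 and Rpl35a were 0.02 and 0.05. None of the 7 passed a threshold, and the smallest adjusted p was 0.709. Rps19, the gene most often affected, had 682, 699 and 445 CPM in WT and 1121, 384, 632 and 838 CPM in ORP4L KI. Its ORP4L KI libraries spanned a wider range than the WT libraries on both sides.

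The highest log2 fold changes came from genes in which KI 1 stood out. Rpl22l1, a paralog of Rpl22, had 74.1, 85.7 and 54.9 CPM in WT and 215, 70.2, 87.0 and 97.0 CPM in ORP4L KI. KI 1 stood far above the other libraries, and KI 2 was below the upper WT libraries. Its log2 fold change of 0.71 (95% interval -0.14 to 1.57) had the smallest p of the 86 genes, 0.0927 before and 0.469 after adjustment (edgeR), and an exact permutation p of 0.257. Without KI 1 the value was 0.24. Rpl39, a small protein lining the exit tunnel, had 257, 267 and 157 CPM in WT and 647, 189, 293 and 325 CPM in ORP4L KI, with a log2 fold change of 0.68 (adjusted p = 0.524) that was 0.24 without KI 1. Rps29 had 476, 461 and 220 CPM in WT and 1191, 226, 452 and 463 CPM in ORP4L KI. With KI 1 the log2 fold change was 0.60 (SE 0.518), and without it -0.02.

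Rps4l lay lowest. It is a copy related to Rps4x, annotated on chromosome 6 as a transcribed pseudogene, and it had 10.8, 18.3 and 4.0 CPM in WT and 11.3, 2.03, 2.99 and 2.05 CPM in ORP4L KI. The other 3 ORP4L KI libraries were below every WT library, and KI 1 was above all WT libraries but WT 2. The log2 fold change was -1.27 (95% interval -2.80 to 0.27, adjusted p = 0.472). Without KI 1 it was -2.22 and passed the call at an unadjusted p under 0.01, the only call of any of the 86 genes under any setting tried. In that fit 567 of all 13338 genes tested were called.

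**Figure D2:**
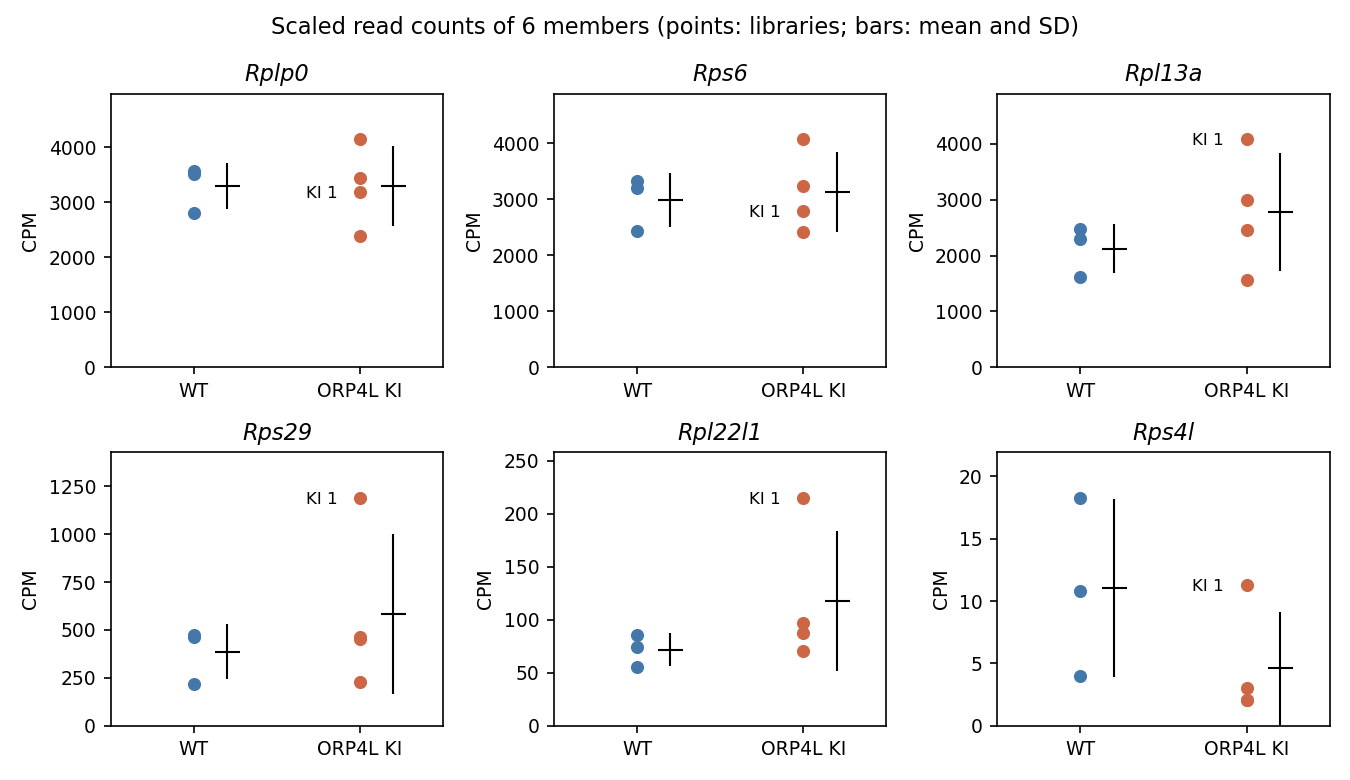
Scaled counts, as CPM (vertical axes, from 0) of 6 genes are plotted for the 3 WT (blue) and 4 ORP4L KI (orange) libraries, each point a library, with the mean and SD as black bars. KI 1 lies among the other libraries for Rplp0 and Rps6 and is the highest ORP4L KI library for Rpl13a, Rps29, Rpl22l1 and Rps4l.

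Within a genotype, by contrast, the genes moved together from library to library. Each gene's log2 CPM was set against the mean of its genotype. In WT, library 3 was the lowest of the 3 for all 86 genes, against 43.6% of all genes tested. The median deviation of the 86 genes was 0.20 in WT 1, 0.18 in WT 2 and -0.40 in WT 3. In ORP4L KI, library 2 was the lowest of the 4 for 78 of the 86 genes, against 33.4% of all genes, with a median deviation of -0.50. KI 4 was the highest for 54 genes, with a median of 0.30, and KI 1 and KI 3 had medians of 0.12 and 0.06. The part of the within-genotype sum of squares carried by the mean profile over the genes was 82.2% in WT and 56.1% in ORP4L KI, against 0.557% and 0.192% for all genes tested. TMM scaling itself centres the profile of all genes near 0. With total-count scaling it was 78.1% in WT and 35.2% in ORP4L KI, against 1.14% and 7.13% for all genes. For the 77 established ribosomal proteins it was 86.9% and 62.7%.

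**Figure D3:**
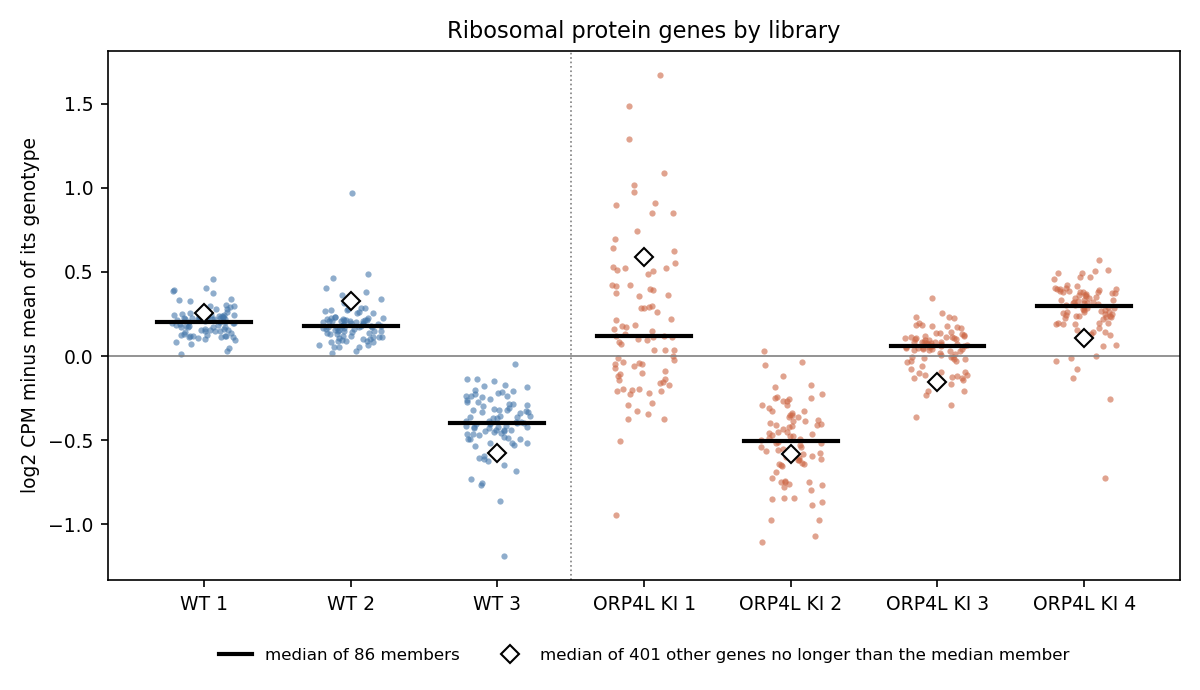
For each library (horizontal axis) the points give the log2 CPM of the 86 genes minus the mean of their genotype (vertical axis), with blue for WT, orange for ORP4L KI, a black line at the median and an open diamond at the median of 401 other genes no longer than the median ribosomal protein transcript. The points of WT 3 and KI 2 lie almost all below 0, those of KI 1 spread from -0.94 to 1.67, and the diamonds take the same side of 0 as the black lines in every library but KI 3.

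The low position of WT 3 and KI 2 was also seen in other genes. The 78 mitochondrial ribosomal protein genes tested, nuclear genes for a separate ribosome without TOP mRNAs, had median deviations of 0.25, 0.23 and -0.49 in WT 1 to 3, and 77 of the 78 were below 0 in WT 3. In ORP4L KI 1 to 4 their medians were 0.42, -0.36, -0.09 and 0.02, and KI 1 was the highest library for 62 of the 78, whereas KI 4 was the highest for most of the 86 cytosolic genes. Their mean profile carried 80.3% of the within-genotype sum of squares in WT and 60.0% in ORP4L KI. The 401 other genes with transcripts no longer than 714 bases, the median length of the 86, had medians of -0.58 in both WT 3 and KI 2 and of 0.59 in KI 1. The mean profile of these 401 carried 50.4% of the within-genotype sum of squares in WT and 39.8% in ORP4L KI. The 12975 longer genes had medians between -0.01 and 0.02 in every library. Across the 86 genes the deviation in WT 3 had a Spearman correlation of 0.51 with transcript length, and the value was 0.56 over all genes tested, both given as a description over genes that share the same libraries. The part of RNA quality, of cell source and of transcript length in this profile was not tested.

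The 86 genes as a whole took 12.6%, 11.5% and 8.92% of all counts in WT and 9.69%, 8.70%, 11.4% and 12.6% in ORP4L KI. The mean was 11.0% ± 1.88 (SD, n = 3) in WT and 10.6% ± 1.73 (n = 4) in ORP4L KI. The difference was smaller than the spread in either genotype. The share was lowest in WT 3 and KI 2, whose granulocyte marker shares were the lowest of their genotypes at 0.186% and 1.12%, and it was 9.69% in KI 1, where granulocyte markers took 12.2%. Of the counts outside the granulocyte markers, the 86 genes took 12.7%, 11.5% and 8.94% in WT. In ORP4L KI 1 to 4 they took 11.0%, 8.79%, 11.8% and 13.2% of those counts, so the genotypes overlapped here as well.

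**Figure D4:**
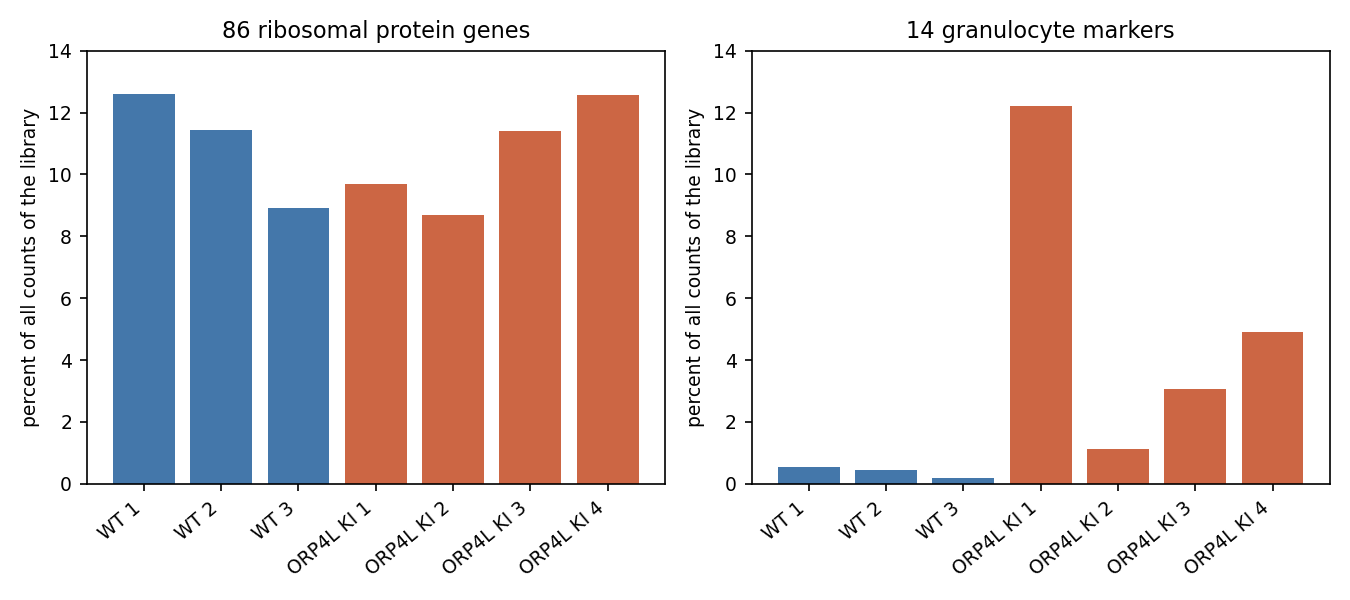
Bars give the percent of all counts of a library (vertical axes, both from 0 to 14) taken by the 86 ribosomal protein genes (left) and by 14 granulocyte markers (right), with WT in blue and ORP4L KI in orange. The ribosomal protein share ranges from 8.70% to 12.6% and overlaps between genotypes, and the granulocyte share is higher in each ORP4L KI library than in any WT library.

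The deviations were most spread out in KI 1, for these genes and for all genes. The interquartile range of its 86 deviations was 0.53 on the log2 scale, against 0.09 to 0.28 in the other 6 libraries. Over all genes tested it was 0.76 in KI 1 and 0.28 to 0.64 in the others. It was the highest ORP4L KI library for 32 genes, close to the 36.9% of all genes for which it was highest, the lowest for 7, and between the others for 47. In 10 genes it was more than 1 above the mean of the other 3 ORP4L KI libraries on the log2 scale, among them Rps4l (2.23), Rps27l (1.98), Rps29 (1.72), Rps28 (1.45), Rpl22l1 (1.36), Rpl39 (1.30), Rpl35a (1.21), Rpl41 (1.20) and Rpl38 (1.13). Of these, Rpl41 was picked out after its values were seen. Rpl21 (-0.67), also picked out afterwards, was among the furthest below. In the shortest group of 29 genes, with transcripts of 317 to 578 bases, the median difference was 0.38, and it was 0.05 in the middle 29 and -0.01 in the longest 28. The median log2 fold change between genotypes in the same groups was 0.21, 0.09 and 0.06.

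**Figure D5:**
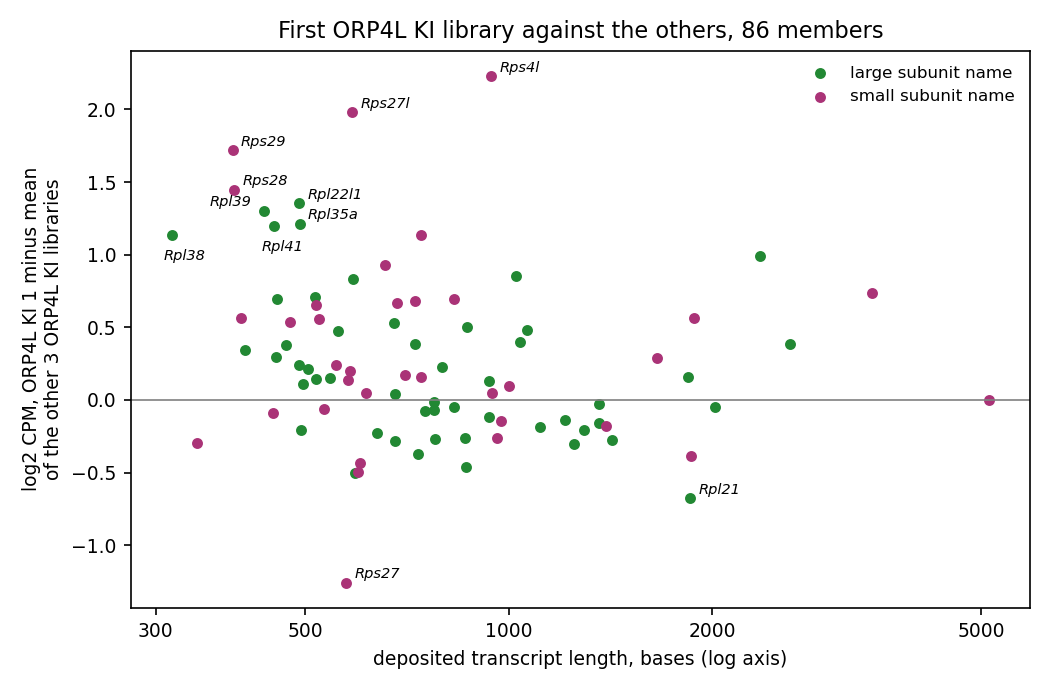
The log2 CPM of KI 1 minus the mean of the other 3 ORP4L KI libraries (vertical axis) is plotted against the deposited transcript length in bases (horizontal log axis) for the 86 genes, green for large and purple for small subunit names. The labelled genes above 1 belong to short transcripts of 317 to 586 bases apart from Rps4l (2.23), and the lowest value, -1.26, is that of Rps27, whose reads are shared with a copy, Rps27rt, as described below.

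Rps27l, a paralog of Rps27 induced by p53, was also highest in KI 1. It had 27.9, 31.5 and 13.5 CPM in WT and 74.9, 14.6, 20.7 and 22.3 CPM in ORP4L KI. Without KI 1 its log2 fold change turned from 0.45 (SE 0.553) to -0.34. Rps28 had 286, 289 and 153 CPM in WT and 628, 141, 280 and 309 CPM in ORP4L KI, with a log2 fold change of 0.49, and 0.01 without KI 1. Outside KI 1, the ORP4L KI libraries of Rps28 lay close to the range of the WT libraries.

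Several of these genes have near-identical copies, and how the deposited counts were split between them limits what each value means. When the annotated transcripts were cut into windows of 50 bases, 20 of the 86 genes shared over 10% of them with another listed gene, and 7 shared over 50%. Rps27 and Rps27rt, on chromosomes 3 and 9, have open reading frames of 255 bases with 0 differences between them in the GENCODE annotation of GRCm38, shown here because reads inside it cannot be told apart.
Rps27 and Rps27rt: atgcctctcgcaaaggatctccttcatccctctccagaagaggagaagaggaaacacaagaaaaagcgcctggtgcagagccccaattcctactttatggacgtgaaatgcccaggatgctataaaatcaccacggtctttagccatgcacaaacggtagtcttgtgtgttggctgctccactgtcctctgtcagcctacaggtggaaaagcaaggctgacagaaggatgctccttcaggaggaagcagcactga
Of the reads counted on this pair, 97.8% were assigned to Rps27rt and 2.16% to Rps27, so only their sum is read here. The sum was 1087, 1011 and 742 CPM in WT and 884, 799, 1215 and 1360 CPM in ORP4L KI. Its means of 947 ± 181 CPM (SD, n = 3) and 1064 ± 266 CPM (n = 4) overlapped.

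Between copies, the division of counted reads differed by library, and KI 1 and KI 2 were often at opposite ends. Of the pairs sharing over 10% of windows, 9 had at least 10 counts in every library on the copy with fewer reads. This comparison was chosen after these values were seen. Not all 9 are near-identical, since Rpl32 shared 14.5% of its windows with Rpl32l and Rpl21 shared 14.7% with BC004004. In 7 of the 9, the percent of the pair's reads on the lesser copy was outside the range of the other 6 libraries in KI 1, below it in 5 and above it in 2. In those same 5 pairs, KI 2 had the highest percent of all libraries. Deviations over all genes tested were also widest in KI 1, with an interquartile range of 0.76 against 0.28 to 0.64 in the others. The same percent was not computed for pairs of unrelated genes, so these counts cannot be read as particular to copies. Wdr89, whose transcript contains a stretch like Rplp2, took 0.666% of the reads of that pair in KI 1 and 3.92% to 6.94% in the others. Its own level was 8.64 CPM in KI 1 and 24.9 to 57.1 CPM in the others. Such a percent compares counts on 2 genes. Whether reads were assigned differently or the genes were expressed at different levels was not tested. Gm15421 took 0.451% of the reads of its pair with Rpl22l1 in KI 1 and 2.64% to 4.90% in the others. Rpl34-ps1 took 0.980% of the reads of its pair with Rpl34 in KI 1 and 2.09% to 3.91% elsewhere. Summed with its copy, Rpl22l1 still had 216 CPM in KI 1, against 73.8 to 100.3 CPM in the other ORP4L KI libraries.

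Levels between genes can be compared only per transcript length, which the deposited RPKM values (reads scaled by transcript length and library total) allow. Rps14 had the highest mean RPKM over the 7 libraries, 4289, followed by Rpl13 (3458), Rps9 (3029) and Rpl23a (2854). Rps27rt had 2863, but it is left out of this order because its value depends on how reads were split with Rps27. The order of Rps9 and Rpl23a was within the spread, since Rps9 ranged from 2178 to 3684 RPKM over the libraries and Rpl23a from 2151 to 3243. The lowest were Rps4l (7.72), Rps19bp1 (14.3) and Rpl7l1 (23.5), of which the latter pair encodes no ribosomal subunit. Rpl22, the lowest of the established proteins when Rps27 is left out because of the same split, had 169 RPKM, with a deposited length of 2353 bases. The median over the 86 genes was 1179 to 1690 RPKM by library, against 5.97 to 8.08 RPKM for all genes tested.

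Large and small subunit levels stayed near the same ratio in all 7 libraries. The summed RPKM of the 51 large subunit names over that of the 35 small subunit names was 1.32, 1.32 and 1.31 in WT and 1.36, 1.33, 1.33 and 1.33 in ORP4L KI. The mean was 1.32 ± 0.00889 in WT and 1.34 ± 0.0137 in ORP4L KI, and these ratios were not tested. To more digits the genotypes did not overlap, at 1.306 to 1.323 in WT and 1.328 to 1.357 in ORP4L KI. The same ratio in counts, not scaled by length, did overlap, at 1.337 to 1.349 in WT and 1.335 to 1.362 in ORP4L KI. The median log2 fold change was 0.10 over the large and 0.14 over the small subunit names, and 42 of 51 and 31 of 35 were above 0. Rpl22l1 made up 46.2% to 50.5% of the summed RPKM of Rpl22 and Rpl22l1 in WT, and 59.8%, 55.5%, 52.4% and 52.8% in ORP4L KI 1 to 4. These shares did not overlap between genotypes, a pattern that was noticed after the values were seen, and 13.8% of all genes tested did not overlap in CPM.

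Lists of related genes were read against the 4.68% of all genes that were called. Fau and Rack1, ribosome components that the naming rule leaves out, had log2 fold changes of 0.12 and 0.07. Among 19 translation factors and partners with TOP mRNAs, none was called, 12 were above 0 and 7 below (63.2% above, against 51.5% of all genes), and the median log2 fold change was 0.03. The values furthest from 0 in that group were those of Eif4b (-0.18), Eif4a2 (0.16) and Eif3h (-0.14), all initiation factors. Among 36 ribosome biogenesis genes, none was called, 20 were above 0 and 16 below (55.6% above, against 51.5%), and the median was 0.03. Bysl, which matures the small subunit, had 0.75 (edgeR adjusted p = 0.319), and Mdn1, which remodels the large subunit precursor, had -0.42 (adjusted p = 0.777).

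Regulators of ribosome output were measured alongside. None of 24 genes was called, against 4.68% of all genes, 12 were above and 12 below 0 (against 51.5% of all genes above), 5 had genotypes that did not overlap (13.8% of all genes), and the median log2 fold change was -0.00. Mdm2, the p53 ligase bound by Rpl5 and Rpl11, had a log2 fold change of 0.75 (SE 0.193), below the fold needed for a call. Its edgeR p was 0.00341 before and 0.117 after adjustment, and its exact permutation p was 0.0286, the smallest possible. It was among the 5 that did not overlap, at 79.1 to 109 CPM in WT and 137 to 174 CPM in ORP4L KI. Max, the partner of Myc, had 0.58 (adjusted p = 0.342), and Pik3cd, the leukocyte PI3-kinase subunit, -0.42 (adjusted p = 0.516). Both were also among the 5. Myc (-0.13), Mtor (-0.21) and Larp1 (0.16) were within their errors of 0, with SEs of 0.225, 0.261 and 0.189.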

How the data were processed

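Libraries of 4 ORP4L KI and 3 WT mice were grouped by the genotype in the sample labels. The authors trimmed adapters, dropped reads under 17 nt, mapped the rest to a mouse mRNA reference with FANSe3, summed over splice variants, and deposited raw read counts per gene. The deposited RPKM values use the longest transcript of each gene; they served here for levels between genes only, and RPKM of genes with a long deposited transcript, such as Rps15a and Rps20, may be understated. The labels name mm10. The version of the mRNA reference and the handling of reads that fit several genes were not given in the sources used here. Sequences came from RefSeq and GENCODE tables of GRCm38.

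Counts were fitted over all 7 libraries with edgeR 4.0.16 (filterByExpr, TMM, quasi-likelihood test) in R 4.3.3, with Benjamini-Hochberg adjustment over the 13462 genes tested. DESeq2 1.42.0 was an alternative. Log2 CPM used a prior count of 2. Permutation tests were two-sided and exact over the 35 splits of 4 against 3 libraries, with a smallest possible p of 0.0286. No libraries agreed within sampling noise. The members and lists were chosen with earlier results of these data known. Genes were named by mean RPKM, fold change, p and role lists. In simulated counts, 182 of 200 genes changed by 2 on the log2 scale were called, with 73 false calls among 13281 genes.

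Each gene counted at 0 is bounded at 3 counts, for counting error only. Alternatives were other scalings, filters, tests, a replicate block, each library left out, and, added after seeing the data, WT 3 and KI 2 left out together. Some genes counted in the totals are not reported here by name.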

Additional observations from a re-analysis of the deposited data

Results flagged for a closer look

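Of 41 groups of 4 ORP4L KI values examined for a sample far from the others, 3 were singled out, where about 2.05 would be by chance at this level, and in each the far sample was KI 1. Rps27l had 74.9 CPM in KI 1, and 14.6 to 22.3 CPM in the other 3 libraries. Rps4l had 11.3 CPM in KI 1, and 2.03 to 2.99 CPM in the others. The ratio of summed RPKM of large over small subunit genes was 1.36 in KI 1, and 1.33 in each of the others to 3 digits, whereas the same ratio in counts, not scaled by length, was 1.34 in KI 1 and 1.34 to 1.36 in the others. Granulocyte markers took 12.2% of counts in KI 1 and 1.12% to 4.91% in the other ORP4L KI libraries. Their part in these values was not tested.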

How the results depend on the processing

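No alternative called a ribosomal protein gene at an adjusted p under 0.05. Of all genes, that threshold called 0 to 784 by alternative, and where it called 0 the result for the 86 carries no information. At the unadjusted threshold the only call was Rps4l without KI 1 (1 gene, log2 fold change -2.22), where 567 of all 13338 genes tested were called. With each library left out in turn, the number of the 86 called ran from 0 to 1, against 328 to 805 of all genes. The genes with a log2 fold change below 0 numbered 13, and 49 with total counts, 29 with upper-quartile scaling, 24 without WT 3 and KI 2, and 3 to 47 with each library left out. The share of all genes above 0 was 51.5%, and 35.6% with total counts and 44.4% with upper-quartile scaling. It was 51.3% without WT 3 and KI 2, and 47.5% to 53.3% with each library left out. The median of the 86 minus that of all genes was 0.11, and 0.08 with total counts and 0.10 with upper-quartile scaling. The median log2 fold change of the 86 genes was 0.12, and -0.04 with total counts, 0.05 with upper-quartile scaling, 0.14 with DESeq2 size factors, 0.12 without WT 3 and KI 2, and -0.03 to 0.27 with each library left out. The spread within ORP4L KI carried by the mean profile was 35.2% with total counts. The cause of these shifts was not tested.

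The samples were not treated as paired by replicate number. Over all genes, deviations of same-numbered WT and KI libraries correlated at -0.535 to 0.150, and those of different-numbered libraries at -0.393 to 0.510. With so few libraries, these overlapping ranges cannot decide whether the numbers pair the samples. With the replicate number as a block, 41 genes lay below 0, the median was 0.00, none was called, and values turned negative for Rpl11 (-0.059), Rpl13 (-0.17), Rplp1 (-0.089), Rps26 (-0.086), Rps6 (-0.085), Rps9 (-0.14) and Rpsa (-0.13). In that fit 50.2% of all genes were above 0, and 466 of 13313 genes were called.

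The other changes of sign among the genes named, none of them called, were these. Total counts gave Rpl11 -0.094, Rpl13 -0.13, Rpl26 -0.043, Rpl5 -0.050, Rpl7l1 -0.096, Rplp1 -0.078, Rps10 -0.029, Rps19bp1 -0.060, Rps26 -0.12, Rps27a -0.052, Rps6 -0.079, Rps9 -0.14 and Rpsa -0.095. Upper-quartile scaling gave Rpl11 -0.011, Rpl13 -0.041, Rpl7l1 -0.0089, Rps26 -0.038, Rps9 -0.041 and Rpsa -0.014. Without WT 3 and KI 2 the values were Rpl11 -0.0099, Rpl13 -0.020, Rplp0 0.023, Rps26 -0.071 and Rpsa -0.013. DESeq2's test and its size factors each gave 0.0055 for Rpl10 and 0.013 for Rplp0, and Rplp0 was 0.0031 with no filter. With each library left out in turn, the lowest and highest values that spanned 0 were Rpl10 -0.15 to 0.11, Rpl10a -0.23 to 0.052, Rpl11 -0.12 to 0.16, Rpl13 -0.17 to 0.15, Rpl22 -0.023 to 0.45, Rpl26 -0.058 to 0.24, Rpl36al -0.023 to 0.35, Rpl4 -0.17 to 0.016, Rpl7l1 -0.048 to 0.12, Rplp0 -0.14 to 0.11, Rplp1 -0.038 to 0.28, Rplp2 -0.011 to 0.40, Rps10 -0.058 to 0.24, Rps14 -0.29 to 0.023, Rps19bp1 -0.099 to 0.32, Rps26 -0.22 to 0.22, Rps27a -0.061 to 0.31, Rps27l -0.34 to 0.69, Rps29 -0.019 to 0.86, Rps6 -0.085 to 0.16, Rps7 -0.13 to 0.043, Rps9 -0.14 to 0.17 and Rpsa -0.13 to 0.14. With 3 and 4 libraries, intervals were wider than the differences measured, so these data limit the size of a change rather than show its absence.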
